A study of Mus musculus with 14 samples.

Results

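Whole ears from a pair of mouse lines that lack Langerhans cells were compared after painting with vehicle alone. The comparison set 3 LC-DTA samples against 3 LC-DTR samples, chosen by their genotype and treatment labels, out of 14 samples in the series. LC-DTA ears are labelled as long-term ablation: in such mice the Langerhans cells make the A chain of diphtheria toxin and die without any injection. LC-DTR ears are labelled as short-term ablation: the Langerhans cells carry the receptor for diphtheria toxin, and the ears were taken 3 days after the toxin was given. Every ear in the comparison had received 20 µl of acetone and olive oil in a ratio of 4 to 1, spread over both of its faces, and was collected 6 h later. The other 8 samples, 4 of each line, had 1% croton oil, a skin irritant, in the same vehicle, and served here only to look up the same genes in ears that the vehicle comparison did not use. No ear with its Langerhans cells in place was analysed here, so a difference between the lines can come from either of them. The labels do not say that LC-DTA mice were given toxin. The sources used here give neither the promoter that drives each transgene nor the strain, age or sex of the mice. They also do not say whether samples came from separate mice, so p-values measure the spread between these samples. The numbers in the sample labels run from 10575 to 10619 in the LC-DTA vehicle group and from 10825 to 11098 in the LC-DTR vehicle group, and a handling step that followed them cannot be told apart from genotype.

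Langerhans cells are the antigen-presenting cells of the epidermis, where they sit between keratinocytes and reach the local T cells, nerves and the draining lymph node. The skin below them holds mast cells, which store proteases, histamine and heparin in granules and answer neuropeptides through Mas-related receptors, as well as macrophages, dendritic cells, fibroblasts, vessels and Schwann cells. An ear that has lacked Langerhans cells for long was compared here with one that lost them within days. The question was which of the compartments named above differ between the lines before any irritant is applied. The lines also differ in transgene and in how recently the cells died, and toxin is recorded for LC-DTR ears only. None of these can be told apart from the length of the absence.

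Expression was measured as TPM, a count of transcripts scaled by transcript length so that each sample sums to 1000000. TPM keep no depth, so no counting interval could be given for any value. The sources used here do not say whether strand was used in counting, so the values of described genes whose exons overlap a gene on the opposite strand are uncertain: Bcl3, Col9a3, Csf1r, Dok4, Dst, Elovl1, Elovl6, F13a1, Fbn1, Fn1, Fosl1, Il1b, Jund, Krt5, Maf, Oasl1, Pmel, Pnpla1, Tgfb2, Tnc, Usp18 and Wnt11. The 6 samples had 13771 to 14332 genes at 1 TPM or more, and the 10 most abundant genes took 7.59% to 10.1% of the total. Over 14258 genes the first principal component, with 60.4% of the variance of log2(TPM + 1), separated the lines: the LC-DTR samples scored -16.0, -32.9 and -12.8 and the LC-DTA samples 17.2, 20.4 and 24.1. LC-DTR vehicle sample 3 stood apart from the rest on the second component (20.6% of the variance, score -26.3 against -0.54 to 13.2 in the others). Across genes it correlated with the other LC-DTR samples at r = 0.986, and with the LC-DTA samples at 0.982 to 0.986, whereas LC-DTR samples 1 and 2 correlated at 0.994. Leaving that sample out raised the number of genes called from 2905 to 3975.

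The marker of the ablated cell was near zero in both lines. Langerin (Cd207) was at 0.198, 0.105 and 0.474 TPM in LC-DTR samples 1 to 3 and at 0.0567, 0.654 and 0.158 TPM in LC-DTA samples 1 to 3, and Ly75, an endocytic receptor of Langerhans and dendritic cells, at 0.27, 0.186 and 0.367 and 0.26, 0.359 and 0.392 TPM. The ranges of both genes overlapped, both lay below the filter on low values, and fitted without that filter Cd207 had a log2 difference of 0.02 ± 0.19 (SE, adjusted p = 0.964). Epcam, which keratinocytes of the hair follicle share with Langerhans cells, was at 239, 228 and 196 and 228, 199 and 215 TPM and was not called (adjusted p = 0.749). Markers of the other tissues of the ear were present. Keratins of the basal epidermis (Krt5 at 5429 to 6283 TPM over the 6 samples), collagens, cartilage, muscle and nerve genes were all measured, and no B cell gene reached the filter.

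At an adjusted p under 0.05 (limma on log2(TPM + 1), Benjamini-Hochberg adjustment over all 14258 genes), 2905 genes differed between the lines, 20.4% of those tested. Of them, 2190 were higher in LC-DTA ears (15.4% of genes tested) and 715 were lower (5.01%). The differences were mostly small: 172 called genes were at least 2-fold higher and 22 at least 2-fold lower in LC-DTA ears. In all 2905 called genes the 2 groups of samples did not overlap. Where separate groups are mentioned below, they describe the values and set no called gene apart from the others. The excess of higher genes depended on the scaling of the samples. In the deposited TPM 75.4% of called genes were higher and the median log2 difference over all genes was 0.10. After scaling by the median ratio 54.0% were higher (1502 against 1280), and after quantile normalization 48.4% (1286 against 1372), with medians over all genes of 0.01 and -0.01, a shift of over 0.1 under quantile normalization. The count rested on the LC-DTA samples and on LC-DTR sample 2 in particular, since it fell to 381 without LC-DTA sample 3, 1173 without LC-DTA sample 1, 1209 without LC-DTA sample 2 and 1277 without LC-DTR sample 2.

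**Figure D1:**
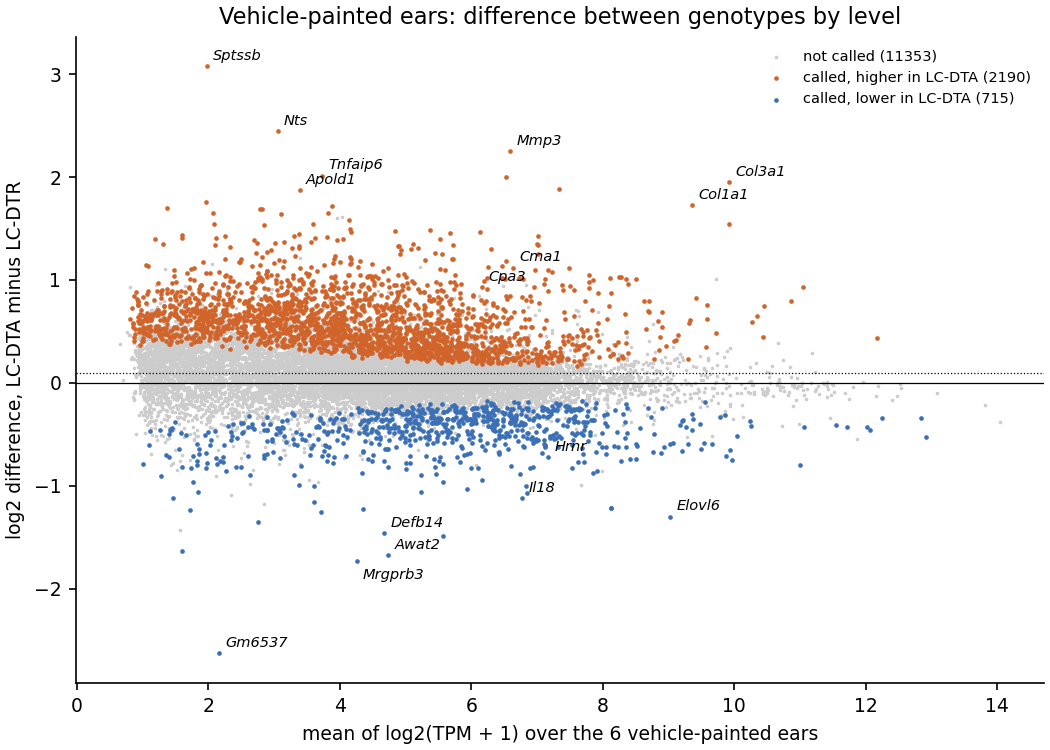
Each point is 1 of the 14258 genes tested in vehicle-painted ears, by its mean level over the 6 samples (horizontal axis, log2(TPM + 1)) and its log2 difference, LC-DTA minus LC-DTR (vertical axis). Colour marks the 2190 genes called higher and the 715 called lower in LC-DTA ears, the dotted line is the median of all genes (0.10), and higher calls outnumber lower ones at most levels.

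The genes named first are those with the largest higher values in LC-DTA ears. Values are given for LC-DTR samples 1, 2 and 3 and then for LC-DTA samples 1, 2 and 3, and ± is the standard error of the log2 difference, LC-DTA minus LC-DTR, with 3 samples in each group. Sptssb, a small subunit of the enzyme that starts sphingolipid synthesis, was at 0.17, 0.777 and 0.203 TPM against 19.5, 7.44 and 7.69 TPM, a log2 difference of 3.08 ± 0.35 (adjusted p = 0.00551). All 3 LC-DTR samples lay under 1 TPM and all 3 LC-DTA samples above 7, and the first LC-DTA sample was the highest by far. Nts, the precursor of neurotensin, was at 1.98, 4.15 and 1.91 TPM against 19.3, 16.2 and 19.8 TPM (2.45 ± 0.22, adjusted p = 0.00311). Mmp3, the matrix protease stromelysin, was at 36, 44.1 and 50.8 TPM against 255, 176 and 205 TPM (2.25 ± 0.16, adjusted p = 0.00182). Sample 2 was the highest LC-DTR sample for Nts, still far below all LC-DTA samples, and for Mmp3 the lowest LC-DTA sample was over 3 times the highest LC-DTR sample. Tnfaip6, a hyaluronan-binding protein made in inflamed tissue, was at 7.93, 2.86 and 7.47 TPM against 21.6, 27.7 and 28.6 TPM (2.01 ± 0.31, adjusted p = 0.0101). Apold1, a gene of endothelial cells that responds early to stress, was at 4.70, 5.32 and 3.54 TPM against 17.7, 18.2 and 21.5 TPM (1.88 ± 0.14, adjusted p = 0.00265). Apln, the vascular peptide apelin, was at 2.74, 2.22 and 3.72 TPM against 12.4, 9.25 and 12.9 TPM (1.69 ± 0.18, adjusted p = 0.00513). None of these 6 genes lost its call when any 1 sample was left out. Col3a1 and Col1a1 had large differences too (1.95 ± 0.54 and 1.73 ± 0.38), but LC-DTR sample 3 lay close to the LC-DTA range: Col3a1 was at 329, 272 and 1317 TPM against 1822, 1629 and 2319 TPM. Their adjusted p values of 0.0408 and 0.0216 rose above 0.05 when any 1 sample but LC-DTR sample 3 was left out, to at most 0.124 and 0.0803, and Col3a1 was not called after median ratio scaling either. Cpz, a carboxypeptidase of the matrix, rose by 1.72 ± 0.31, and Pde1b, a phosphodiesterase, by 1.65 ± 0.11 (adjusted p = 0.014 and 0.00182). Cpz passed the threshold only with LC-DTA sample 3 in the fit (0.0608 without it). Serpina3j (2.0 ± 0.35) and Serpina3b (1.88 ± 0.41) belong to a family of near-identical serpins whose reads can be shared, so which member differed is uncertain, and Serpina3j missed the threshold without LC-DTA sample 3 (adjusted p 0.0547), whereas Serpina3b missed it when any 1 sample but LC-DTR sample 3 was left out (up to 0.0764). Snord33 (1.76 ± 0.18) lies inside Rpl13a, a ribosomal protein gene whose reads it can take.

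Mmp3, Tnfaip6, Mmp10 and Plaur are shown with their promoters because all 4 were higher in LC-DTA ears and each holds the recognition letters of the AP-1 factors, the Fos and Jun family, within 250 bases before its start. The genes and the motif were picked after their values had been seen. Sequences are RefSeq's for GRCm38.p6, in the direction of transcription and ending at the base before the start, with TGAGTCA or its reverse complement TGACTCA in capitals. They lie at chr9:7445572-7445821 (Mmp3, plus strand), chr2:52037863-52038112 (Tnfaip6, plus strand), chr9:7502092-7502341 (Mmp10, plus strand) and chr7:24462233-24462482 (Plaur, plus strand).
Mmp3: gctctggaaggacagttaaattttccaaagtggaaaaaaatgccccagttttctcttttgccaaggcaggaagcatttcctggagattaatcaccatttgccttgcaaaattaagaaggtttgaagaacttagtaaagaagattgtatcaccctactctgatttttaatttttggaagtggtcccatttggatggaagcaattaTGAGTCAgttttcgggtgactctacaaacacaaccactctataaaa
Tnfaip6: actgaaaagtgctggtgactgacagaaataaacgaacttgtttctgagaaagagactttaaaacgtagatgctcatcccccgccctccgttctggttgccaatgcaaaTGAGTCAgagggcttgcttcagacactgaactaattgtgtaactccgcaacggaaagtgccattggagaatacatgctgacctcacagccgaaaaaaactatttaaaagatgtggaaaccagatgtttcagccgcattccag
Mmp10: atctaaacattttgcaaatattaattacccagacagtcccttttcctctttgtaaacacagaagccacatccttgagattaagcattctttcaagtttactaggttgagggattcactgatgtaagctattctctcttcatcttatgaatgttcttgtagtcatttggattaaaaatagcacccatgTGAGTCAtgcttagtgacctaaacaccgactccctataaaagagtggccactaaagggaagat
Plaur: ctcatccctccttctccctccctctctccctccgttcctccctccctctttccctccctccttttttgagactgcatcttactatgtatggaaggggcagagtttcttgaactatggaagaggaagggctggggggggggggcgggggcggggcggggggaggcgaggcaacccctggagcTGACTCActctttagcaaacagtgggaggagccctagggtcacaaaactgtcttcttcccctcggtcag
The motif began 46 bases before the start in Mmp3, 142 in Tnfaip6, 63 in Mmp10 and 69 in Plaur, and on either strand it was found in 4.46% of 32851 promoter windows of this length. A match of letters is a description of the window and not a measured binding site. Mmp10, a second stromelysin, was at 1.33, 2.62 and 1.88 TPM against 8.42, 3.75 and 9.52 TPM (1.43 ± 0.31, adjusted p = 0.0206). Plaur, the receptor of urokinase, was at 10.1, 9.34 and 9.33 TPM against 28.5, 23.8 and 35.6 TPM (1.5 ± 0.14, adjusted p = 0.00331). LC-DTA sample 2 was the lowest of its group for both genes. The 2 groups did not overlap, and Mmp10 lost its call without LC-DTR sample 1, LC-DTA sample 1 or LC-DTA sample 3 (adjusted p up to 0.075).

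The genes with the largest lower values in LC-DTA ears had varied functions. Il18, a cytokine that keratinocytes and Langerhans cells store, was at 171, 164 and 147 TPM against 69.04, 73.3 and 78.4 TPM (-1.12 ± 0.08, adjusted p = 0.00182). Elovl6, a fatty acid elongase, was at 887, 919 and 671 TPM against 289, 337 and 373 TPM (-1.3 ± 0.14, adjusted p = 0.00535). Defb14, a beta defensin, was at 47.3, 55.2 and 26.7 TPM against 16.2, 16.4 and 11.1 TPM (-1.46 ± 0.26, adjusted p = 0.014). Lcn2, the iron-binding defence protein lipocalin 2, was at 13.7, 23.4 and 22.1 TPM against 6.28, 6.71 and 9.94 TPM (-1.25 ± 0.23, adjusted p = 0.014). No LC-DTA value of these genes reached any LC-DTR value. Alox12e, an epidermal lipoxygenase, was at 396, 378 and 508 TPM against 158, 236 and 162 TPM (-1.21 ± 0.17, adjusted p = 0.00913). Pctp, which carries phosphatidylcholine, fell by 1.49 ± 0.21, Paqr7, a membrane progestin receptor, by 1.21 ± 0.17, Mycl, a member of the Myc family, by 1.03 ± 0.14 and Kctd4 by 1.23 ± 0.19 on the log2 scale (adjusted p = 0.0089, 0.00899, 0.00871 and 0.00999). Ccr4, a chemokine receptor of skin-homing T cells, was at 13.5, 15.5 and 20.1 TPM against 8.99, 6.82 and 7.06 TPM (-1.0 ± 0.16, adjusted p = 0.0112), and each LC-DTA sample again lay below each LC-DTR sample. Defb14, Ccr4 and Oas1e lost the call without LC-DTA sample 3 (adjusted p 0.0589, 0.0521 and 0.0584). Mrgprb3 (-1.73 ± 0.18), Oas1e (-1.35 ± 0.24) and Lce1k (-1.07 ± 0.14) are members of families of near-identical genes, and Dok4 (-1.06 ± 0.25) overlaps the exons of Polr2c on the other strand, so these values are uncertain. The call for Dok4 was lost without LC-DTR sample 2 or any 1 of the LC-DTA samples (adjusted p up to 0.0875). A predicted gene outside the naming rule, Gm6537, was singled out after its values had been seen, because at 9.28, 12 and 9.20 TPM against 0.785, 0.908 and 0.692 TPM it had the lowest adjusted p of all genes (-2.63 ± 0.13, adjusted p = 0.000524). Its lowest LC-DTR sample lay about 10 times above its highest LC-DTA sample.

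Mast cell genes were higher in LC-DTA ears almost throughout. Of 18 mast cell genes tested, 13 rose and 1 fell, and the median log2 difference was 0.77, against 15.4% of all genes called higher and a median of 0.10. Among the granule proteases, Mcpt4, a connective tissue chymase, was at 86.1, 68.4 and 101 TPM against 136, 210.4 and 211 TPM (1.1 ± 0.20, adjusted p = 0.014). Cma1, another gene of the chymase family, was at 66.7, 50.4 and 87.3 TPM against 119, 143 and 182 TPM (1.12 ± 0.21, adjusted p = 0.0151). Cpa3, carboxypeptidase A3, was at 57.8, 38.3 and 59 TPM against 77.6, 105 and 115 TPM (0.93 ± 0.20, adjusted p = 0.0193). In these 3 genes every LC-DTA sample exceeded every LC-DTR sample, and LC-DTA sample 1 was the lowest of its group each time. Tpsb2, a tryptase, was at 47.4, 35.97 and 40.2 TPM against 47.1, 68.9 and 74.8 TPM and was not called (0.60 ± 0.18, adjusted p = 0.0511), its groups overlapping at LC-DTA sample 1. Hdc, which makes histamine, was at 6.45, 4.07 and 8.38 TPM against 17.7, 17.5 and 24.2 TPM (1.54 ± 0.23, adjusted p = 0.00939), the largest difference of the mast cell genes after Mrgprb1. Mrgprb1 was at 1.66, 1.08 and 1.42 TPM against 5.32, 6.79 and 7.46 TPM (1.65 ± 0.15, adjusted p = 0.00311). Mrgprb2, the Mas-related receptor through which neuropeptides and many drugs activate mast cells, was at 3.42, 2.66 and 2.70 TPM against 5.83, 7.08 and 5.78 TPM (0.88 ± 0.13, adjusted p = 0.00913). Both belong to a receptor family of similar sequence, of which Mrgprb3 moved the other way, so the share of reads that each member received is uncertain. Mrgprd, a receptor of sensory neurons, had at most 0.0706 TPM in any of the 6 samples. Kit, the receptor for stem cell factor on which mast cells depend, was at 7.45, 5.29 and 6.41 TPM against 9.71, 12.8 and 12.2 TPM (0.77 ± 0.15, adjusted p = 0.015), and Gata2, a transcription factor of the lineage, rose by 0.86 ± 0.15 (adjusted p = 0.0134). The 1 gene that fell, Rab27b, which docks granules, was at 37.2, 35.5 and 35.6 TPM against 26.4, 26.2 and 28.2 TPM (-0.41 ± 0.06, adjusted p = 0.011), and other cells of the skin may express it as well.

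**Figure D2:**
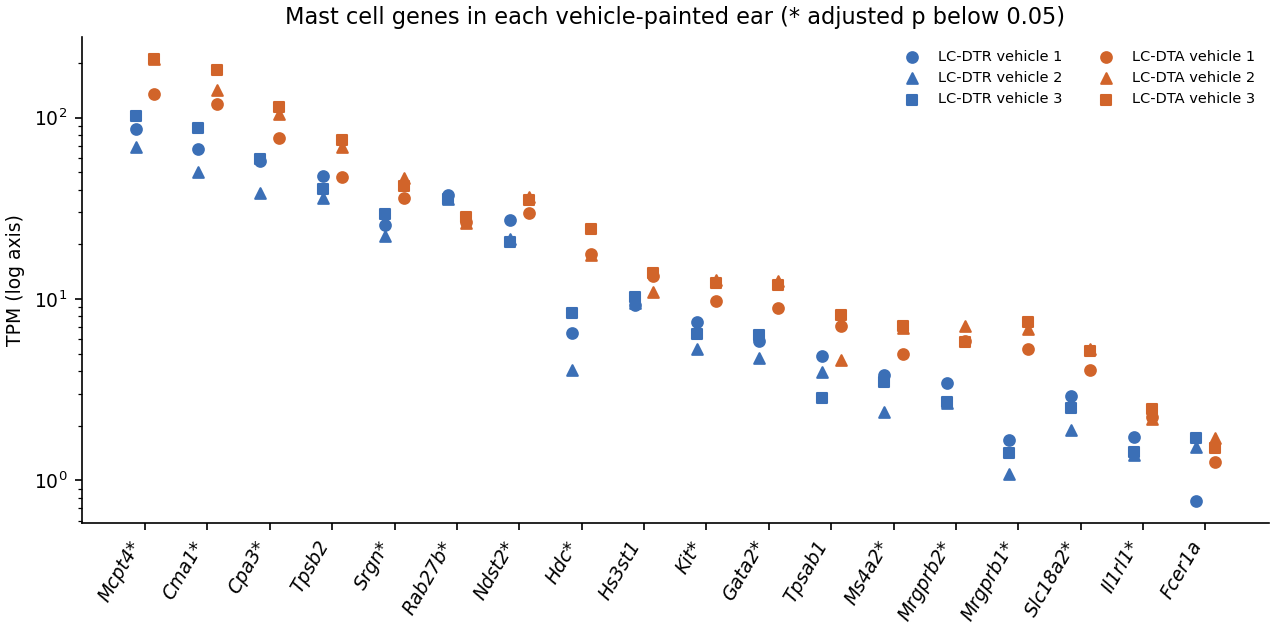
Levels of the 18 mast cell genes tested (vertical log axis, TPM) in each of the 3 LC-DTR and 3 LC-DTA vehicle-painted ears, ordered by their mean, with an asterisk where the adjusted p was below 0.05. LC-DTA points lie above LC-DTR points for the 13 genes that rose, and Rab27b shows the opposite order.

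Leaving out 1 sample at a time left between 3 (without LC-DTA sample 3) and 13 of the mast cell genes called higher. Without LC-DTA sample 3 the adjusted p was 0.074 for Cpa3, 0.0608 for Cma1, 0.0603 for Mcpt4, 0.0681 for Kit and 0.0611 for Gata2, while Hdc, Mrgprb1 and Mrgprb2 remained called. Cpa3 and Kit also lost the call without LC-DTA sample 2. Other cells of the dermis moved with the mast cell genes. The summed level of the mast cell list was 311 to 422 TPM in LC-DTR and 553 to 789 TPM in LC-DTA samples, that of the fibroblast list 4516 to 9221 and 12341 to 15771 TPM, that of the macrophage list 492 to 697 and 845 to 1013 TPM, and that of the basal keratinocyte list 14880.2 to 16770 and 14175 to 14275 TPM. The mean log2 level of the mast cell genes minus that of the macrophage genes was -1.19, -1.10 and -1.37 in LC-DTR samples and -1.29, -1.25 and -1.22 in LC-DTA samples, so that the groups overlapped. Minus the fibroblast genes it was -3.04, -3.05 and -3.70 against -3.73, -3.49 and -3.67, again with overlap. Minus the genes of blood endothelium and lymphatics it was -0.34, -0.48 and -0.53 against -0.32, -0.22 and -0.13, and minus those of Schwann cells and nerve -0.81, -0.69 and -0.62 against -0.55, -0.53 and -0.45, in both cases without overlap, although for the former LC-DTR sample 1 lay close to LC-DTA sample 1. Minus the basal keratinocyte genes it was -5.59, -5.91 and -5.39 against -4.94, -4.83 and -4.61, with no overlap. The part of a larger dermal share of the ear in the mast cell result was not tested. In whole tissue, more cells of a type and more RNA per cell cannot be told apart.

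**Figure D3:**
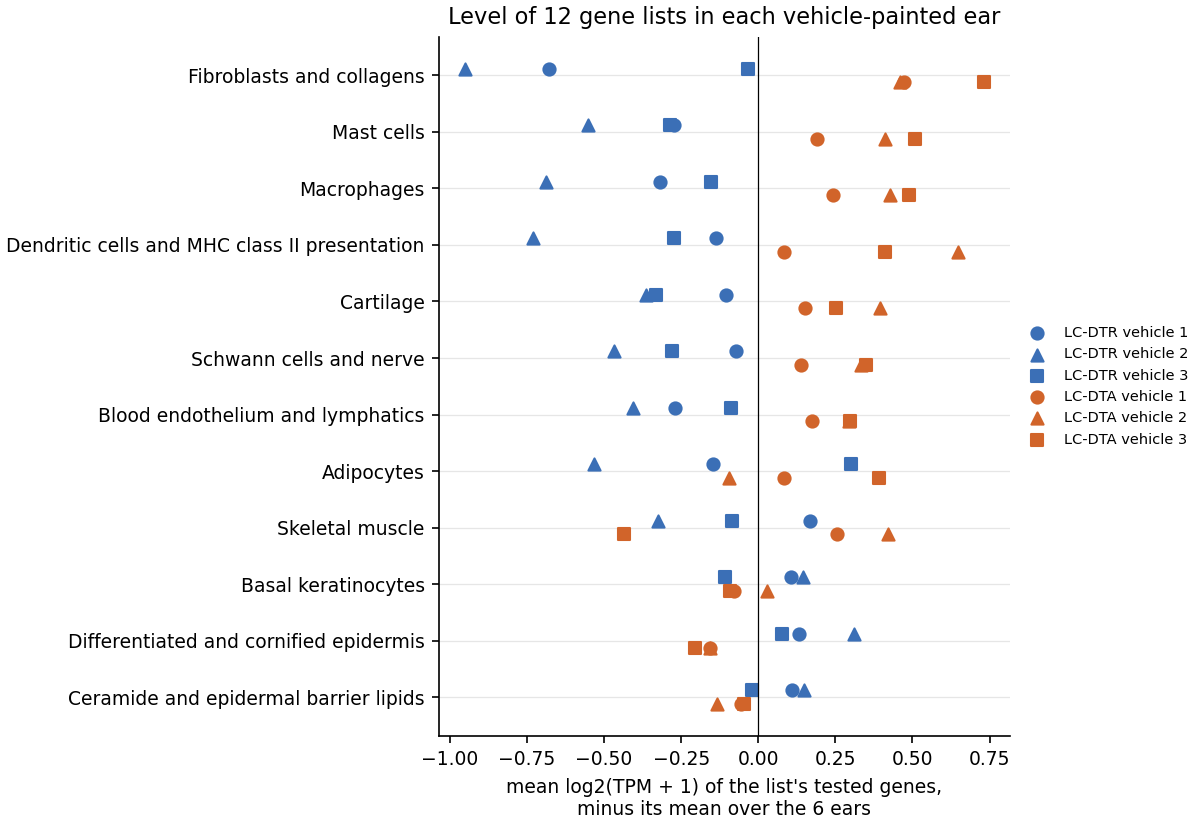
For 12 gene lists, the mean log2(TPM + 1) of the genes tested in each vehicle-painted ear, as the difference from the list's mean over the 6 ears (horizontal axis). LC-DTA ears (orange) lie to the right of LC-DTR ears (blue) for fibroblast, mast cell, macrophage, dendritic cell, cartilage, nerve and vessel genes and to the left for cornified epidermis, and LC-DTR sample 3 lies nearest to the LC-DTA ears for fibroblast genes (-0.03 against -0.68 and -0.95 in the other LC-DTR ears).

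Macrophage genes and the genes of antigen presentation were higher in LC-DTA ears as well. Of 14 macrophage genes tested 10 rose and 1 fell (median 0.85). Of 12 genes of dendritic cells and MHC class II 8 rose and none fell by the same limma test (median 0.91, none lower at an unadjusted p under 0.05). Over all genes tested, 15.4% were called higher and 5.01% lower at an adjusted p under 0.05. Csf1r, the receptor for the growth factor of macrophages, was at 37.4, 24.2 and 40.7 TPM against 65.5, 82.4 and 87.2 TPM (1.2 ± 0.19, adjusted p = 0.0115). Cd209f, a lectin of dermal macrophages, was at 4.85, 3.48 and 7.17 TPM against 14.6, 13.9 and 17.04 TPM (1.43 ± 0.21, adjusted p = 0.00913). Cd68, a lysosomal protein of macrophages, was at 43.3, 36.6 and 43.1 TPM against 73.3, 65.3 and 89.9 TPM (0.87 ± 0.12, adjusted p = 0.00913). No LC-DTR value of these 3 genes reached an LC-DTA value. Csf1, the ligand of Csf1r, rose by 0.74 ± 0.10 (adjusted p = 0.009). Maf, a transcription factor of tissue macrophages that other cells express too, went the other way, at 129, 139 and 137 TPM against 91.4, 87.1 and 86.1 TPM (-0.61 ± 0.06, adjusted p = 0.00331). Of the dendritic cell genes, Flt3, the receptor for the growth factor of these cells, was at 2.37, 1.42 and 0.962 TPM against 3.67, 5.51 and 5.02 TPM (1.17 ± 0.22, adjusted p = 0.0141), and Irf8 and Zbtb46, both transcription factors of the lineage, rose by 0.99 ± 0.17 and 0.58 ± 0.10 (adjusted p = 0.0127 and 0.0127). Without LC-DTA sample 3 the adjusted p was 0.052 for Csf1r, 0.0625 for Flt3, 0.0589 for Irf8 and 0.0638 for Zbtb46. In that fit 3 macrophage genes and none of the dendritic cell genes remained called higher, and the medians were 0.78 and 0.84.

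The 4 genes of the MHC class II molecule were ordered alike over the 6 samples. H2-Ab1, a beta chain, was at 154, 87.7 and 131 TPM against 190.0, 361 and 267 TPM (1.12 ± 0.27, adjusted p = 0.0267). H2-Aa, an alpha chain, was at 256, 133 and 213 TPM against 299, 521 and 389 TPM (1.02 ± 0.27, adjusted p = 0.036). Cd74, the invariant chain that guides these molecules to the endosome, was at 322, 184 and 283 TPM against 383, 691 and 522 TPM (1.01 ± 0.26, adjusted p = 0.0319). H2-Eb1 was at 93.8, 50.7 and 81.4 TPM against 109, 206 and 148 TPM (1.02 ± 0.28, adjusted p = 0.0392). In each gene LC-DTR sample 2 was the lowest, LC-DTR samples 3 and 1 came next, LC-DTA sample 1 lay just above them, and LC-DTA samples 3 and 2 were the highest. All 4 calls were lost without LC-DTR sample 2, LC-DTA sample 2 or LC-DTA sample 3 (adjusted p up to 0.0868, 0.104, 0.097 and 0.108). They were also lost without the filter on low values and with a replicate block, and that for H2-Eb1 without the limma trend. Of 7 tested members of the Langerhans cell list 5 rose, these 4 and Mfge8, a bridge to dying cells, and Cd24a fell. Over all genes tested, 15.4% were called higher and 5.01% lower. Macrophages and dendritic cells express the 4 class II genes as well, and Cd207 was near zero in both lines. The promoters of H2-Aa and H2-Eb1 are shown because their genes moved together and both hold the letters of the Y box, CTGATTGG, the NF-Y element of class II promoters, in capitals below. They lie at chr17:34287824-34288073 on the minus strand (H2-Aa) and chr17:34305617-34305866 on the plus strand (H2-Eb1) of GRCm38.p6, each written in the direction of transcription.
H2-Aa: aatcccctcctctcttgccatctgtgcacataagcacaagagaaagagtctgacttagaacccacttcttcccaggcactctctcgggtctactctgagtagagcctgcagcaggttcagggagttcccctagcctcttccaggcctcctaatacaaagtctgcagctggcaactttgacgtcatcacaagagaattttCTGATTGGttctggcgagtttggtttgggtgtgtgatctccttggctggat
H2-Eb1: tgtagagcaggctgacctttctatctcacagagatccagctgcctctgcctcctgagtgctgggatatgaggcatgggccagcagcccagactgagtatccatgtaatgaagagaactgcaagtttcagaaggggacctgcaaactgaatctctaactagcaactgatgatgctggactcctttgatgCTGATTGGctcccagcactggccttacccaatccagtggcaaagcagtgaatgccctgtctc
The motif began 51 bases before the start in H2-Aa and 62 in H2-Eb1. With its reverse complement CCAATCAG it was found in 3.83% of 32851 promoter windows. These exact letters were not found in the windows of H2-DMa and H2-DMb1, which serve peptide loading. Only exact matches were counted, so a variant of the element would be missed, and the H2-DMb1 window holds the near match GTGATTGG. H2-DMb1 was itself among the genes called higher in LC-DTA ears. As before, genes and motif were chosen after the values had been seen.

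Genes of other leukocytes gave a mixed picture. Of 13 T cell genes 3 rose and none fell by limma (1 was lower at an unadjusted p under 0.05), near the 15.4% of all genes called higher. The list median was -0.20, with a positive difference in 5 of 13 genes. The called genes were Thy1, Cd4 and Itgae, of which Thy1 also marks fibroblasts and Cd4 macrophages in mouse skin. Thy1 was at 115, 131 and 123 TPM against 223, 235 and 232 TPM (0.90 ± 0.06, adjusted p = 0.00182). Cd4 was at 2.73, 1.18 and 2.94 TPM against 5.07, 7.58 and 8.62 TPM (1.32 ± 0.26, adjusted p = 0.0165). Neither of the CD3 chains described, which belong to the T cell receptor complex, passed the test: Cd3g was at 33.4, 33.6 and 23.4 TPM against 23.7, 19.3 and 19.1 TPM (-0.51 ± 0.15, adjusted p = 0.0526) and Cd3d at 7.19, 7.67 and 5.22 TPM against 5.43, 4.95 and 4.90 TPM (-0.32 ± 0.14, adjusted p = 0.14). LC-DTR sample 3 lay within the LC-DTA range for both genes, and Cd3g was called lower without that sample, after median ratio scaling, after quantile normalization, in a fit of all 14 samples and with a replicate block. Skint3, a relative of the keratinocyte protein that selects dendritic epidermal T cells, fell, at 51.5, 49.4 and 50.3 TPM against 25.98, 29.3 and 24.7 TPM (-0.90 ± 0.08, adjusted p = 0.00296). Neutrophil genes stayed low in both lines, with S100a8 at 4.65, 17.7 and 13.6 TPM against 16.9, 6.69 and 21.5 TPM (adjusted p = 0.673), and of 7 such genes only Il1b rose. Il1b was at 1.62, 1.64 and 1.75 TPM against 4.43, 3.79 and 3.57 TPM (0.88 ± 0.11, adjusted p = 0.00651). Of 7 monocyte genes only F13a1 rose (0.91 ± 0.22, adjusted p = 0.0262), and macrophages express it as well. Cd4 and F13a1 were not called without LC-DTA sample 2 or 3 (adjusted p up to 0.0693 and 0.0932), nor F13a1 without LC-DTA sample 1.

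Chemokine genes moved in 1 direction where they were called. Of 21 tested, 8 rose and none fell by limma, with a median of 0.43 and none lower at an unadjusted p under 0.05. Over all genes tested, 15.4% were called higher and 5.01% lower. Ccl24, an eotaxin that attracts eosinophils, was at 2.73, 2.60 and 3.42 TPM against 10.3, 7.45 and 19.9 TPM (1.69 ± 0.30, adjusted p = 0.0135). Ccl7, which attracts monocytes, was at 19.5, 19.9 and 16.2 TPM against 53.6, 36.2 and 51.9 TPM (1.29 ± 0.16, adjusted p = 0.0062). Cxcl14, a chemokine of epithelium and stroma, was at 71.9, 63.2 and 67.7 TPM against 113, 125 and 130.0 TPM (0.85 ± 0.08, adjusted p = 0.00311). Ccl24 varied most within LC-DTA ears, whereas the Cxcl14 groups were each tight, and for none of the 3 did the lines overlap. Of 19 interferon-stimulated genes 4 rose (Oasl1, Mx2, Mx1 and Usp18), a share near the 15.4% of all genes called higher, and all at low levels: the highest of them, Usp18, was at 1.94, 1.06 and 2.35 TPM against 3.21, 4.06 and 3.39 TPM (0.74 ± 0.19, adjusted p = 0.0334). By limma none of these 4 was called without LC-DTA sample 3. Usp18 lost its call when any 1 sample but LC-DTR sample 3 was left out (adjusted p up to 0.107), Mx1 when LC-DTR sample 1 or 2 or LC-DTA sample 2 or 3 was (up to 0.105), and Mx2 when LC-DTR sample 2 or any LC-DTA sample was (up to 0.0877). After quantile normalization Mx1, Mx2 and Usp18 were not called. The summed level of the interferon list was 108, 79.2 and 282 TPM in LC-DTR samples and 127, 140 and 159 TPM in LC-DTA samples. The groups overlapped, and LC-DTR sample 3 lay above every LC-DTA sample. Among cytokines of the epithelium, Tgfb1 and Tgfb2 rose (0.49 ± 0.10 and 0.78 ± 0.19, adjusted p = 0.0197 and 0.0305), again not without LC-DTA sample 3 or LC-DTA sample 1 (adjusted p up to 0.0731 and 0.106). Tgfb1 also missed the threshold without LC-DTR sample 2, and Tgfb2 without LC-DTA sample 2.

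Fibroblast and collagen genes had the highest median of the 45 lists examined. Of 20 tested 17 rose and none fell by limma, with a median log2 difference of 1.03 and none lower at an unadjusted p under 0.05. Over all genes tested, 15.4% were called higher and 5.01% lower. Fn1, fibronectin, was at 71.8, 66.2 and 119 TPM against 195, 197 and 205 TPM (1.25 ± 0.20, adjusted p = 0.0109). Tnc, the matrix glycoprotein tenascin C, was at 15.3, 12.1 and 22.7 TPM against 41.3, 40.9 and 60.6 TPM (1.48 ± 0.23, adjusted p = 0.011). Fbn1, fibrillin 1, was at 33.8, 24.6 and 46.9 TPM against 72.7, 83.5 and 82.8 TPM (1.2 ± 0.20, adjusted p = 0.0121). LC-DTR sample 3 was the highest LC-DTR sample for each of them, and still lay below all LC-DTA samples. Without LC-DTA sample 3, 4 of the 20 remained called, Fn1 and Tnc among them at adjusted p of 0.0491 and 0.0488, while Fbn1 was at 0.0547, and the median was 1.00, whereas without LC-DTR sample 3 the median was 1.37 and 19 were called. Of 15 cartilage genes 8 rose (median 0.63). Col9a3, a chain of cartilage collagen IX, was at 35.7, 27.1 and 33.1 TPM against 51.96, 61.8 and 55.8 TPM (0.81 ± 0.11, adjusted p = 0.0089). Lect1, chondromodulin, was at 37.2, 35.9 and 39.1 TPM against 58.3, 54.02 and 58.7 TPM (0.59 ± 0.07, adjusted p = 0.00543). Neither gene's groups overlapped. None of 12 adipocyte genes (median 0.22) and none of 15 muscle genes (median 0.20) was called by limma, and none of them reached an unadjusted p under 0.05.

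Genes of vessels and nerves were higher in LC-DTA ears as well. Of 14 genes of blood endothelium and lymphatics 7 rose (median 0.46), and of 9 genes of activated endothelium 6 rose (median 0.75). Over all genes tested, 15.4% were called higher and 5.01% lower. Cdh5, the cadherin of endothelial junctions, was at 14.7, 12.95 and 14.3 TPM against 27.2, 30.8 and 31.2 TPM (1.03 ± 0.09, adjusted p = 0.00296). Angpt2, which loosens vessel walls, was at 4.32, 3.69 and 3.81 TPM against 10.5, 10.7 and 12.1 TPM (1.29 ± 0.10, adjusted p = 0.00265). The lowest LC-DTA sample was nearly 2 times the highest LC-DTR sample for Cdh5 and over 2 times for Angpt2. Of 12 Schwann cell and nerve genes 7 rose and 1 fell (median 0.63). Gap43, a growth protein of axons and of Schwann cells without myelin, was at 2.64, 2.18 and 2.83 TPM against 6.55, 5.99 and 6.06 TPM (1.02 ± 0.11, adjusted p = 0.00541). Ngfr, a receptor of neurotrophins, was the gene that fell, at 31.98, 37.9 and 35.3 TPM against 22.4, 22.4 and 22.2 TPM (-0.62 ± 0.08, adjusted p = 0.00696). The groups did not overlap for either gene. Of 7 melanocyte genes, Mlana, a protein of the pigment granule, rose (1.05 ± 0.19, adjusted p = 0.014) and so did Pmel (0.70 ± 0.19, adjusted p = 0.0426). Without LC-DTA sample 3 neither was called (0.0603 and 0.139), and Pmel, whose exons overlap those of Cdk2 and Dgka on the other strand, lost its call under both scalings and without LC-DTA sample 1 or 2.

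**Figure D4:**
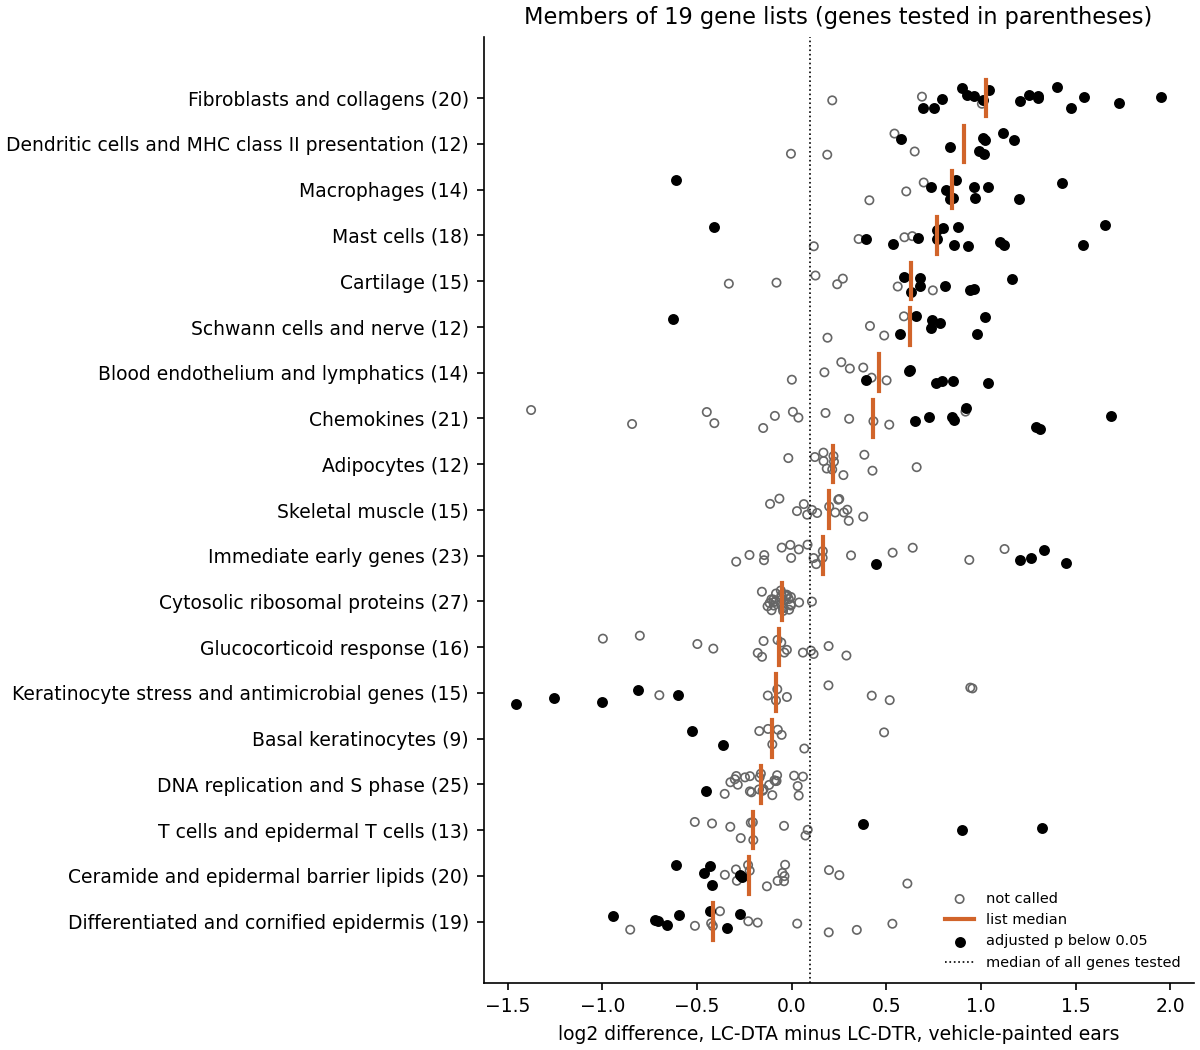
Log2 differences, LC-DTA minus LC-DTR, of the members of 19 gene lists in vehicle-painted ears (horizontal axis), with filled points for genes at adjusted p below 0.05, an orange bar at each list's median and a dotted line at the median of all genes (0.10). Fibroblast, dendritic cell, macrophage and mast cell lists lie to the right (medians 1.03 to 0.77), and the cornified epidermis to the left (-0.42).

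The epidermis moved the other way. Of 19 genes of the differentiated and cornified layers 8 fell and none rose by limma (median -0.42, none higher at an unadjusted p under 0.05), against 5.01% of all genes called lower, and after quantile normalization, which centres all genes near zero, 6 of them were still called lower (median -0.29). Hrnr, the filament protein hornerin, was at 191, 172 and 188 TPM against 100.3, 127 and 107 TPM (-0.72 ± 0.09, adjusted p = 0.00741). Casp14, the protease of the cornified layer that processes filaggrin, was at 83.2, 93.6 and 124 TPM against 50.6, 48.1 and 54.2 TPM (-0.94 ± 0.14, adjusted p = 0.00913). Lor, loricrin of the cornified envelope, was at 4652, 5408 and 4495 TPM against 3628, 3666 and 3479 TPM (-0.43 ± 0.09, adjusted p = 0.0215). Loricrin was the most abundant of these genes, and its LC-DTA samples lay within a narrow range under all LC-DTR samples. Lor lost its call under quantile normalization and without any 1 of the LC-DTA samples (adjusted p up to 0.0892 with a sample left out). Of 9 basal keratinocyte genes 2 fell and none rose by limma (median -0.10, 1 higher at an unadjusted p under 0.05), where 5.01% of all genes were called lower. Dst, which anchors the cell to its basement membrane, fell by 0.53 ± 0.11 on the log2 scale (adjusted p = 0.0171). Trp63, the transcription factor of the basal layer, fell by 0.36 ± 0.11 (adjusted p = 0.0499). Krt5 and Krt14 were not called (adjusted p = 0.309 and 0.225). Leaving out LC-DTR sample 2, LC-DTA sample 1 or LC-DTA sample 3 ended the calls for Dst and Trp63 (adjusted p up to 0.0715 and 0.135), and that for Trp63 was also lost without LC-DTR sample 1 and after quantile normalization. Of 15 stress and antimicrobial genes of keratinocytes 5 fell and none rose by limma (2 were higher at an unadjusted p under 0.05). Besides Defb14 and Lcn2 these were 3 interleukins of the IL-36 group. Il1f8, which encodes IL-36 beta, was at 146, 170.4 and 166 TPM against 84, 68.7 and 87.5 TPM (-1.0 ± 0.10, adjusted p = 0.00513). Il1f9, IL-36 gamma, was at 113, 154 and 119.8 TPM against 71.2, 69.8 and 76.6 TPM (-0.81 ± 0.11, adjusted p = 0.009). Il1f6, IL-36 alpha, fell by 0.60 ± 0.12 (adjusted p = 0.0156; up to 0.0551 without LC-DTR sample 2 or LC-DTA sample 1). The groups did not overlap in any of the 3.

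Lipids of the barrier and of the sebaceous gland showed the same direction in part. Of 20 genes for ceramides and barrier lipids 6 fell and none rose by limma (median -0.23, with 2 higher at an unadjusted p under 0.05). Over all genes tested, 15.4% were called higher and 5.01% lower. Elovl1, which makes the very long chains of ceramides, was at 468, 486 and 412 TPM against 279.7, 302 and 312 TPM (-0.61 ± 0.08, adjusted p = 0.00739), its exons overlapping those of Cdc20 on the other strand, and Pnpla1, which attaches linoleic acid to ceramides, was at 56.7, 59.5 and 50.8 TPM against 41.8, 41.7 and 39.5 TPM (-0.43 ± 0.07, adjusted p = 0.0128). Without LC-DTA sample 3 only 1 of these genes was called, the adjusted p for Pnpla1 was 0.0611, and the list median was -0.25. Of 17 sebaceous and lipid genes 3 fell and 1 rose. Awat2, which makes the wax esters of sebum, was at 72.7, 61.6 and 22.6 TPM against 11.2, 16.5 and 14.7 TPM (-1.68 ± 0.40, adjusted p = 0.0263), with LC-DTR sample 3 nearest to the LC-DTA range, and its call was lost when any 1 sample but LC-DTR sample 3 was left out (adjusted p up to 0.0882). Scd1, a desaturase, rose by 0.44 ± 0.13 (adjusted p = 0.049), but lost its call after median ratio scaling and in each fit that left out 1 sample other than LC-DTR sample 3 (adjusted p up to 0.158). Dhcr7, the last enzyme of cholesterol synthesis, was at 197, 209.8 and 174 TPM against 129, 140.1 and 135 TPM (-0.51 ± 0.08, adjusted p = 0.0101).

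Of 23 immediate early genes 5 rose and none fell by limma (1 was lower at an unadjusted p under 0.05), a share near the 15.4% of all genes called higher, and 3 of the 5 were the NR4A nuclear receptors. Nr4a2 was at 6.16, 3.80 and 6.16 TPM against 14.2, 15.8 and 18.6 TPM (1.45 ± 0.18, adjusted p = 0.00648). Nr4a3 was at 3.26, 3.47 and 3.13 TPM against 7.44, 9.23 and 11.6 TPM (1.26 ± 0.15, adjusted p = 0.00583). Nr4a1 varied more, at 52.6, 32.3 and 19.5 TPM against 68.8, 66.3 and 124 TPM (1.34 ± 0.36, adjusted p = 0.0401). The groups were separate in all 3, LC-DTA sample 3 was the highest each time, and of the 3 calls only that for Nr4a1 was lost when 1 sample was left out (LC-DTR sample 2 or any LC-DTA sample, adjusted p up to 0.12) and after quantile normalization. Jund, a Jun family member, rose by 0.45 ± 0.07, and Fosl1, a Fos family member, by 1.21 ± 0.31 (adjusted p = 0.0103 and 0.0324), although the exons of Fosl1 overlap those of Ccdc85b on the other strand and its call was lost after quantile normalization and without LC-DTR sample 1, LC-DTA sample 1 or LC-DTA sample 3 (adjusted p up to 0.111). None of the promoter windows of Nr4a1, Nr4a2, Nr4a3 and Jund held an exact match to the cAMP response element TGACGTCA, which 1.55% of windows held. Shorter or variant forms of the element were not counted. The Nr4a3 window holds TGACGT, and those of Nr4a1 and Nr4a2 hold CGTCA, both of them parts of it. Of 14 NF-kB feedback genes 5 rose and 1 fell: Bcl3, an atypical inhibitor of the pathway, was at 6.04, 8.38 and 4.46 TPM against 14.3, 13.8 and 15.1 TPM (1.11 ± 0.18, adjusted p = 0.0119), and Il1rn, the antagonist of the IL-1 receptor, fell by 0.28 ± 0.08 (adjusted p = 0.0385). Without LC-DTA sample 3 neither was called (0.0557 and 0.109), and Il1rn was not called without LC-DTR sample 2 or LC-DTA sample 1 or 2 either. Retinoid genes gave 4 higher calls of 13, with Aldh1a1, which makes retinoic acid, at 32.6, 30.7 and 30.2 TPM against 42.8, 45.6 and 41.5 TPM (0.46 ± 0.07, adjusted p = 0.00922).

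Several programmes are given with their counts under vehicle, where 20.4% of all genes tested were called, 15.4% higher and 5.01% lower. By limma, of 27 ribosomal protein genes none was called (median -0.05, none at an unadjusted p under 0.05), of 25 S phase genes 1 fell (Mcm2, a replication helicase subunit, by 0.45 ± 0.11, adjusted p = 0.0317, not called without LC-DTR sample 1 or any LC-DTA sample, up to 0.119), and of 22 mitosis genes none was called (median 0.16, none at an unadjusted p under 0.05). Among 19 clock genes 2 rose and 1 fell, near the shares over all genes. None of 16 glucocorticoid response genes was called by limma (median -0.06), with 2 lower at an unadjusted p under 0.05, and 2 classic targets are given although they were not called: Tsc22d3 was at 309.7, 412 and 182 TPM against 109.6, 206 and 128 TPM (-1.0 ± 0.32, adjusted p = 0.0657) and Fkbp5 at 94.5, 138 and 54.6 TPM against 61.5, 72.4 and 67.2 TPM (-0.41 ± 0.29, adjusted p = 0.333). Both varied more than 2-fold within LC-DTR ears, with sample 2 the highest and sample 3 the lowest, and the groups overlapped for both. Without LC-DTR sample 3, 4 glucocorticoid genes were called lower and 13 mitosis genes were called higher.

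The same genes were looked up in croton oil-painted ears, which share no sample with the vehicle comparison. The label numbers of those samples do not overlap between the lines either. There 7067 genes were called between the lines (49.6% of those tested), 4585 higher in LC-DTA ears (32.2%) and 2482 lower (17.4%). Of the 2190 genes higher under vehicle, 1197 (54.7%) were also called higher after croton oil and 134 were called lower, and their median log2 difference went from 0.55 to 0.30, with a median of 0.09 over all genes after croton oil. Of the 715 genes lower under vehicle, 409 (57.2%) were also called lower and 47 called higher, and the median went from -0.43 to -0.34. Sptssb was at 0.553, 0.519, 0.392 and 0.502 TPM in LC-DTR and 20.03, 23.4, 10.4 and 3.39 TPM in LC-DTA ears (3.09 ± 0.44, adjusted p = 0.000406), and Mmp3 at 141, 103, 106 and 144 TPM in LC-DTR and 708, 845, 763 and 630.3 TPM in LC-DTA ears (2.58 ± 0.13, adjusted p = 5.45e-06). Gm6537 was again low in all LC-DTA ears (-2.33 ± 0.31, adjusted p = 0.000268). Of the mast cell genes, Mcpt4 differed by 1.17 ± 0.19 and Cma1 by 0.96 ± 0.12 (adjusted p = 0.000701 and 0.000164), 10 of 18 were called higher and the median was 0.37. For fibroblasts 18 of 20 were called higher (median 1.27), for macrophages 8 of 14 (median 0.47), and of the genes of the cornified layers 8 of 19 were called lower (median -0.29).

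A test of the difference between the genotype effects, croton oil minus vehicle, over all 14 samples called 3295 genes (23.1%), 811 of them among the 2905 called under vehicle. Of the genes higher under vehicle the difference was negative in 561 and positive in 44, and of those lower it was positive in 162 and negative in 44. These genes were chosen on the vehicle values, which also enter this test, so the direction of those counts is a description only. Apold1 (-1.53 ± 0.24, adjusted p = 0.0012), Hdc (-1.2 ± 0.29, adjusted p = 0.0107) and Nts (-1.38 ± 0.29, adjusted p = 0.00552) had a difference after croton oil that was smaller in the LC-DTA direction. For Nr4a2 (-1.76 ± 0.22, adjusted p = 0.000348) and Nr4a3 (-1.33 ± 0.26, adjusted p = 0.00355) the change exceeded the vehicle difference, so none was left in the LC-DTA direction. Ccl24 had a larger difference after croton oil (1.64 ± 0.41, adjusted p = 0.0134). Gpx3, a secreted glutathione peroxidase, was higher in LC-DTA ears under vehicle, at 96.6, 86.5 and 85.5 TPM against 176, 164 and 173 TPM (0.93 ± 0.07, adjusted p = 0.00182), and lower after croton oil, at 145, 146, 131 and 139.6 TPM in LC-DTR and 109.9, 87.7, 75.5 and 94.1 TPM in LC-DTA ears (-0.62 ± 0.10, adjusted p = 0.000804). Wnt11, a Wnt ligand, and Angptl7, a secreted protein of the angiopoietin-like family, did the same (0.64 ± 0.14 and -1.12 ± 0.09, and 0.36 ± 0.08 and -1.63 ± 0.11), although under vehicle neither was called without LC-DTR sample 2, LC-DTA sample 2 or LC-DTA sample 3 (adjusted p up to 0.0875 and 0.076), and Angptl7 was not called after median ratio scaling or without LC-DTR sample 1 or LC-DTA sample 1. Mcm2, lower under vehicle, was higher after croton oil (1.76 ± 0.10, adjusted p = 6.84e-06), when 23 of 25 S phase genes and 22 of 22 mitosis genes were called higher and 15 of 16 glucocorticoid genes lower. By this test the genotype effects of 23 S phase, 16 mitosis and 12 glucocorticoid genes differed between vehicle and croton oil.

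**Figure D5:**
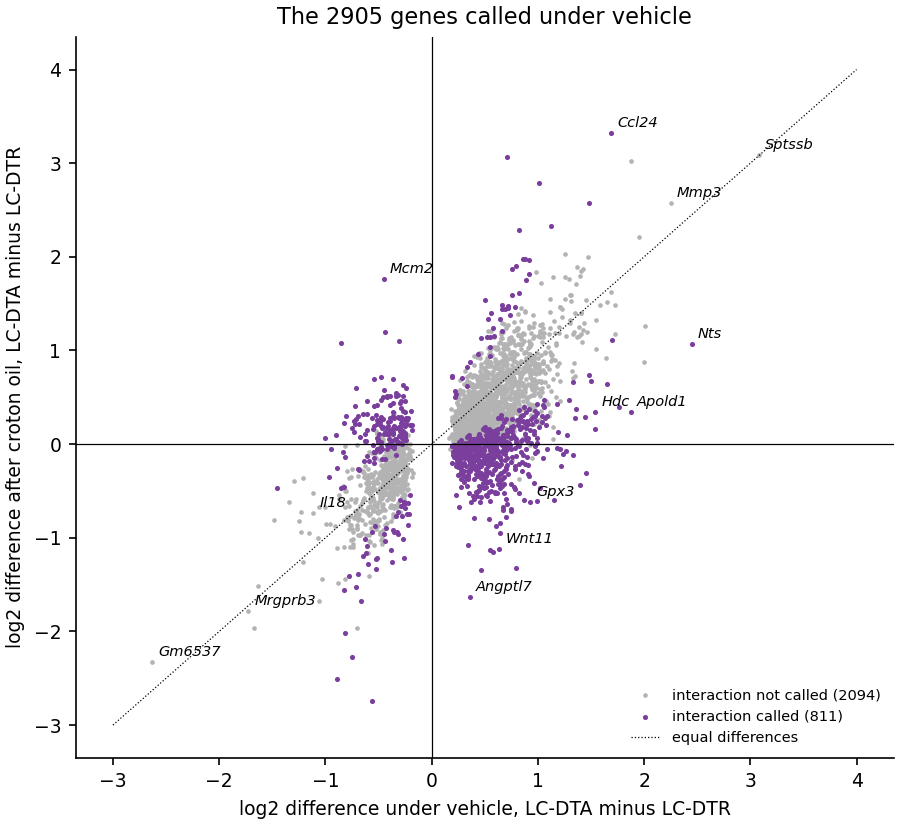
Log2 differences between LC-DTA and LC-DTR ears for the 2905 genes called under vehicle, under vehicle (horizontal axis, 3 against 3 ears) and after croton oil (vertical axis, 4 against 4 other ears), with the line of equal differences dotted. Purple marks the 811 genes for which the test of the difference between the effects was called, Sptssb and Mmp3 lie near the line, and Gpx3, Wnt11 and Angptl7 lie below zero after croton oil.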

How the data were processed

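RNA of whole ears had been isolated with a Qiagen RNeasy kit and made into libraries with the Illumina TruSeq Stranded mRNA kit, per the labels' protocols. Reads had been processed with featureCounts, Subread, HISAT2 and cutadapt on build mm10, per the submitters' processing notes, which give no versions. The values are TPM as deposited by the authors, 1 per gene and sample. The formula behind the TPM, the annotation and the strand setting of the counting were not given in the sources used here. Values of genes whose exons overlap a gene on the opposite strand are therefore given as uncertain. Depth cannot be recovered from TPM. Of 24062 rows, 27 with names turned into dates (0.124% to 0.145% of a sample's TPM) were left out, which left 24035 genes.

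Genes with at least 1 TPM in at least 3 of the 6 vehicle samples (14258) were tested on log2(TPM + 1), so differences of low genes are understated. The test was limma 3.58.1 in R 4.3.3 with a mean-variance trend on these 6 samples, with Benjamini-Hochberg adjustment over all genes tested and a threshold of 0.05. The 8 croton oil samples were fitted alone, and the difference between the genotype effects over all 14. The model was checked on simulated data. The 45 gene lists (768 of 776 entries found, 4 by an older symbol) and the comparison itself were chosen with earlier results of these data known, so lists are described by counts and medians without a test. The genes named were the 15 with the largest difference in each direction among called genes without overlap and with a group mean of at least 5 TPM (predicted genes and Rik clones passed over), up to 5 per list by p, 5 per direction for the difference between effects, and fixed cell markers; members that moved against their list, Gm6537, Mmp10, Plaur and a few other list members were named after their values were seen. No label says that replicate numbers pair the samples. Deviations of same-numbered samples correlated at -0.28, -0.07 and 0.09, which with 3 samples in each group cannot decide whether they were paired. Alternatives were the pseudocount, the filter, median ratio scaling, quantile normalization, the limma settings, a fit of all samples, a replicate block and each sample left out. Promoter windows of 250 bases came from RefSeq (GRCm38.p6). Figures were drawn with matplotlib 3.10.9.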

Additional observations from a re-analysis of the deposited data

Results flagged for a closer look

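In 51 genes looked at after croton oil, the genotype effects were compared, croton oil minus vehicle (limma over 14 samples, on the log2 scale). This test of the difference between the effects passed an adjusted p of 0.05 for 22 of the 51. By the same test 23.1% of all genes were called. Some of the 51 were picked because this test called them, so their passes were fixed by that choice. The count of 22 therefore cannot be weighed against the share of all genes. The difference was negative, toward LC-DTR ears, for genes that were higher in LC-DTA ears under vehicle: Nts (-1.38 ± 0.29), Apold1 (-1.53 ± 0.24), Snord33 (-1.36 ± 0.29), Pde1b (-1.0 ± 0.24), Hdc (-1.2 ± 0.29), Mrgprb2 (-0.78 ± 0.24), Nr4a2 (-1.76 ± 0.22), Nr4a3 (-1.33 ± 0.26), Aldh1a1 (-1.8 ± 0.16), Angptl7 (-1.99 ± 0.16), Gpx3 (-1.55 ± 0.14) and Wnt11 (-1.76 ± 0.16). It was also negative for Tpsb2 (-0.77 ± 0.24) and Serpina3c (-2.51 ± 0.16), which were not called under vehicle. A positive difference was found for Ccl24 (1.64 ± 0.41), which was higher under vehicle already, and for Defb14 (0.98 ± 0.33), Ccr4 (1.07 ± 0.23) and Mcm2 (2.22 ± 0.16), which were lower. Ccr2 (2.68 ± 0.25), Hells (2.2 ± 0.18), Mcm5 (2.25 ± 0.20) and Rbl1 (1.56 ± 0.15), not called under vehicle, also had a positive difference. Several of these genes were taken up because this difference was large or because their vehicle difference was, and the vehicle values enter both.

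In groups of 4 samples, 1 sample stood far from the others for 2 genes out of 102 groups looked at, where chance alone marks about 1 in 20. Mrgprb3 was at 14.8 TPM in LC-DTR croton oil sample 4, and Angptl7 at 933 TPM in LC-DTR croton oil sample 2. The vehicle groups of 3 samples were not looked at in this way.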

How the results depend on the processing

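The number of genes called under vehicle, 2905, was 1656 with a replicate block, although no label says that replicate numbers pair the samples. It was 381 to 3975 when 1 sample at a time was left out, and other settings gave 2249 to 3597. Fits with a sample less test with fewer samples. After croton oil 7067 genes became 5769 to 6956 with 1 sample left out and 6863 to 7476 under other settings. For the difference between the effects 3295 became 2605 with the replicate block and 2156 (without LC-DTA vehicle sample 2) to 3502 with 1 sample left out. Of 114 genes described, 105 were called and 54 of them in every setting; none that was called changed sign. Among the 114, the replicate block removed 14 calls and added 2, and leaving out the filter removed 18 and added none. Of genes not called, Epcam ranged from -0.13 to 0.015 and S100a8 from -0.18 to 0.80 with 1 sample left out. The unknown depth of TPM limits all low values.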

Other observations

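Some gene groups outside the comparisons above also held called genes under vehicle (limma, adjusted p). Over all genes tested, 15.4% were called higher and 5.01% lower. Of 11 complement and acute phase genes 4 rose and 2 fell in LC-DTA ears. Serping1, the inhibitor of the first complement component, was at 136, 102 and 157 TPM against 237, 261 and 252 TPM (0.94 ± 0.14, adjusted p = 0.00965), whereas Orm1, an acute phase protein, was at 671, 702 and 654 TPM against 557, 514 and 504 TPM (-0.36 ± 0.06, adjusted p = 0.0128). The groups did not overlap for either gene, and the call for Orm1 was lost without LC-DTA sample 3 (0.0625). Of 19 glycolysis and hypoxia genes 4 rose, a share near the 15.4% of all genes called higher, among them Vegfa, the growth factor of vessels, at 13.7, 10.05 and 11.4 TPM against 16.98, 18 and 19.1 TPM (0.59 ± 0.12, adjusted p = 0.0169, not called without LC-DTA sample 2 or 3). Of 13 hair follicle genes 1 rose, the transcription factor Sox9 (0.63 ± 0.12, adjusted p = 0.014), which cartilage expresses too and which was not called without LC-DTA sample 3 (0.0608), and 3 fell. Of 16 genes of the unfolded protein response 1 rose and 1 fell, and of 24 genes of oxidative phosphorylation 1 rose (median 0.07). These counts were near or below the shares over all genes.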
